A study of Homo sapiens with 6 samples.

Results

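The genes described here are 43 genes of mitosis: cyclins A and B with CDK1 and its activating phosphatases, mitotic kinases, the spindle checkpoint, the chromosomal passenger complex, genes that act with the anaphase-promoting complex, kinesins, kinetochore proteins, spindle and cytokinesis proteins, and 2 transcription factors of G2/M genes. They were chosen by name from a list of symbols, with earlier results of these data known. All 43 were found among the 26255 gene symbols measured. The 6 RNA-seq libraries, 2 in each of 3 groups, came from BxPC-3, a cell line established from a human pancreatic cancer. Parent cells received no treatment, NC-1 cells received a negative control RNA, and the third group received miR-4711-5p. The RNA duplexes were transfected, and RNA was taken 36 h after the start of treatment. All groups are the same cell line, so no normal pancreatic cell is included, and no group is labelled as transfection reagent alone. The labels do not say whether the 2 libraries of a group came from separate cultures, so the p-values measure the spread between these libraries, which may be technical.

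Mitosis begins when CDK1, bound to cyclin B and activated by CDC25 phosphatases, phosphorylates its substrates. Kinesins and microtubule-binding proteins then build the spindle, kinetochores tie chromosomes to it, and the spindle checkpoint holds back the anaphase-promoting complex until every chromosome is attached. Most of these genes are transcribed in a burst in G2 and mitosis by the MuvB complex with MYBL2 (B-Myb) and FOXM1, acting at the cell cycle genes homology region (CHR), and by NF-Y at CCAAT boxes. In bulk RNA, fewer cells in G2 and mitosis and less RNA per cell cannot be told apart.

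Because the groups differ by a miRNA and the genes are known for promoter elements of the same kind, the sequences bearing on both are given first. A miRNA pairs with mRNAs through its seed, bases 2 to 8, in capitals here (RefSeq, GRCh38.p14, chr1:59733269-59733291, minus strand).
miR-4711-5p: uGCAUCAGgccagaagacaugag
The mRNA words searched for were CTGATGC (7mer-m8), TGATGCA (7mer-A1) and CTGATGCA, which holds both and is the 8mer. None of the 43 mitotic genes had such a word in its longest 3′ UTR, while 2057 (18.4%) of the 11180 tested genes matched to the annotation did. The median 3′ UTR was 725 nt in the mitotic genes and 1495 nt in the tested genes. BIRC5 and PRC1 had a word in the 3′ UTR of 1 transcript of 6 each. That of PRC1 is the same stretch of the genome as its coding word, which lies in 2 of its 9 coding transcripts. In coding sequence, 11 of the 43 mitotic genes (25.6%) and 2697 of the 11180 genes (24.1%) had a word, with a median coding length of 2103 nt and 1404 nt. The only 8mer in the coding sequence of a mitotic gene (1 of 43, 2.33%, against 4.74% of the 11180 genes) was in CDC25B, in all 5 of its annotated coding transcripts. CDC25B also had a 7mer-A1, in 4 of the 5. The coding words of CDC25B and MYBL2 are printed, in capitals, a choice made by their values. Both genes fell by at least 1.5-fold in FPKM + 1 with miR-4711-5p against parent, and fell against NC-1, as described below. Of the other 2 genes that fell that far against parent, KIF20A had no coding word. ANLN had 3 coding 7mer words, each in 2 of its 7 transcripts. They are not printed, and ANLN rose with miR-4711-5p against NC-1. The other 8 genes with a coding word had 7mers only, and these were ASPM, CCNB2, CENPF, INCENP, KIF14, PRC1, TOP2A and TTK, of which CENPF and KIF14 were called in no comparison and PRC1 rose with miR-4711-5p against NC-1. The positions are of GRCh37, which is the hg19 build of the study, plus strand, and each stretch runs past an edge of its exon into the intron.
CDC25B, coding 8mer, chr20:3778377-3778406: ctccgaatcttCTGATGCAggtgaggccca
CDC25B, coding 7mer-A1, chr20:3782363-3782392: cctcaggatgaTGATGCAgttcccccaggc
MYBL2, coding 7mer-m8, chr20:42331123-42331152: tggacaggaccCTGATGCttggtgtgacct
A match of letters is a description and not a shown binding site.

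RefSeq promoter windows (GRCh38.p14, 250 bases before to 50 after the start) were at hand for 37 of the 43 genes, 6 of which had more than 1 window (47 windows in all), and a gene was counted where any of its windows held the word. AURKA, BIRC5, FOXM1, TPX2, TTK and UBE2C had no entry. The CHR was searched as TTTGAA and the NF-Y box as CCAAT, both on both strands. In CDCA8, a CHR word and a reverse-strand CCAAT word share a base. A CHR word was present in 27 of 37 promoters (73.0%), against 18.2% of all 27305 genes in the table and 13.4% of the 8975 tested genes in it. A CCAAT word was present in 30 of 37 (81.1%), against 39.7% and 43.5%. Both words were present in 23 promoters and neither in those of CENPE, KIF2C and MYBL2. The E2F words TTTGGCGC, TTTCGCGC and TTTCCCGC were present in 3 of 37 (8.11%), those of CDK1, CENPA and NUSAP1, against 3.30% and 5.78%. Of 39 CHR words at different positions in the genome, 21 were centred within the 100 bases before an annotated start. The following 6 promoters, of 100 bases before and 20 bases from the start, show the layout of these genes and the exceptions, with both words in capitals on whichever strand they lie. CCNB2, PLK1, PRC1 and CDC20 have both words, ANLN has only the CHR, as 2 adjoining copies on opposite strands, and KIF20A has only CCAAT, on the reverse strand.
CCNB2, chr15:59105046-59105165, plus strand: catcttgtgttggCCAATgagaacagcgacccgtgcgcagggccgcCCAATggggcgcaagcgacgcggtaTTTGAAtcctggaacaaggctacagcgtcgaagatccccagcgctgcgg
PLK1, chr16:23678789-23678908, plus strand: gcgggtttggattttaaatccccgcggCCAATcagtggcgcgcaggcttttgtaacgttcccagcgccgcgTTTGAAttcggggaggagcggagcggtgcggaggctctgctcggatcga
CDC20, chr1:43358881-43359000, plus strand: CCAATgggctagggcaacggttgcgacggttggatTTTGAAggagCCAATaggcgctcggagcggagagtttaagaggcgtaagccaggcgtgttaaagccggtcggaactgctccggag
PRC1, chr15:90994516-90994635, minus strand: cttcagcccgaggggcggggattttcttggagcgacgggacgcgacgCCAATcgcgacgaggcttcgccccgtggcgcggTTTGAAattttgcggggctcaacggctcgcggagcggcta
ANLN, chr7:36389762-36389881, plus strand: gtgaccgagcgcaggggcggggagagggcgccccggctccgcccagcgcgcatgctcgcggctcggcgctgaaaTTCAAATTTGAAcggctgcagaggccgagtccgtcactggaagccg
KIF20A, chr5:138179012-138179131, plus strand: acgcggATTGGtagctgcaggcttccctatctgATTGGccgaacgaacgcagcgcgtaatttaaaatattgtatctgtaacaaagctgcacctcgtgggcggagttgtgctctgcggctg

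**Figure D1:**
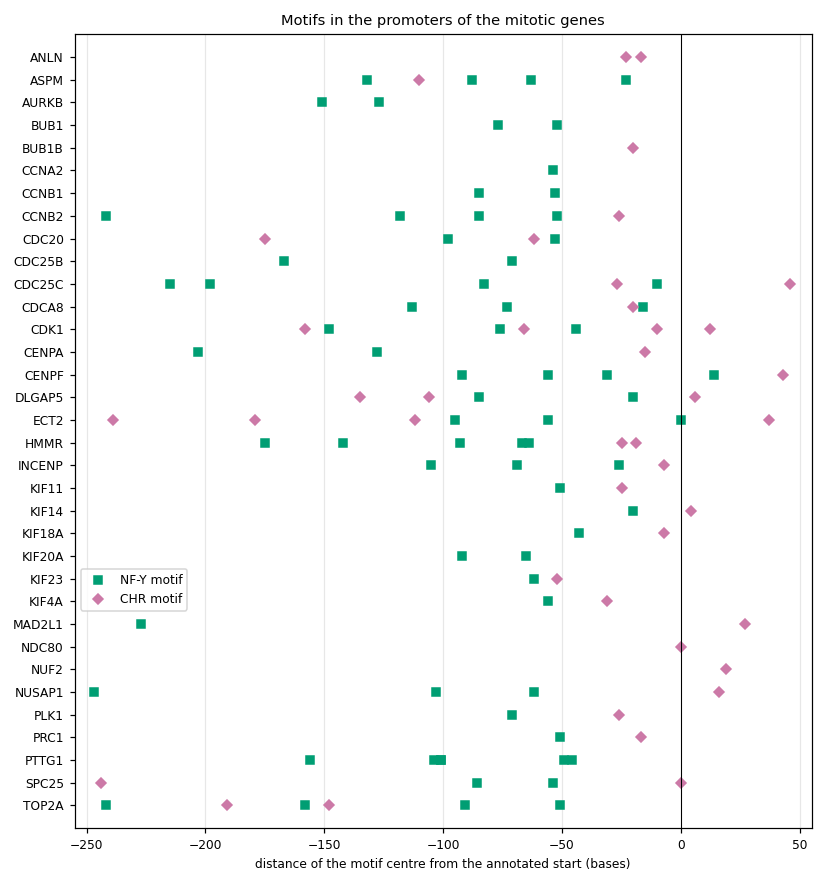
Distance of the centre of each CHR (TTTGAA) and NF-Y (CCAAT) word from the annotated start, in bases, for the 34 mitotic genes with at least 1 of these words; a gene with several starts has its words drawn from each. CCAAT words lie mostly before the start, and many CHR words lie between them and the start, as in CCNB2 and PLK1.

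Levels are given as FPKM, the number of fragments assigned to a gene, scaled by the length of its exons and by a measure of library size. Sums over all symbols were between 493145 and 550772 FPKM, and were lower with NC-1 and lowest with miR-4711-5p, while median-of-ratios factors of the 6 libraries differed by at most 0.131%. The deposited values were thus already level by median-of-ratios. Median-of-ratios scaling, run as an alternative, could therefore change little, whereas equal-sum scaling replaces the deposited scale. Depth in reads is not held by FPKM. Relative to parent 1, it was estimated from the steps between low values at 0.753 to 1.21 in the others, with the NC-1 libraries shallowest and the miR-4711-5p libraries deepest. The 5 epithelial markers summed to 3511 to 4522 FPKM per library, the 4 leukocyte markers to at most 0.257 FPKM, the 4 fibroblast markers to 1.30 to 2.44 FPKM and the 3 endothelial markers to 0.649 to 3.53 FPKM. The epithelial markers did not move together. Mean CDH1 was 115 (parent), 110 (NC-1) and 29.6 FPKM (miR-4711-5p), and mean KRT19 was 1629, 1274 and 901 FPKM. KRT18 and EPCAM were highest with miR-4711-5p, and KRT8 lay between the other groups. TYROBP, a leukocyte marker, was the only marker searched that was at 0 in all 6 libraries.

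All 43 genes had a mean of at least 1 FPKM and entered the test. Mean levels in parent cells ran from 5.47 FPKM (CDC25C) to 237 FPKM (UBE2C), with a median of 39.3 FPKM. Summed over the 43 genes, the levels were 2231 and 2288 FPKM in the parent libraries, 1787 and 1816 FPKM with NC-1, and 1723 and 1727 FPKM with miR-4711-5p. The sum was thus lower in both treated groups than in parent cells, and the miR-4711-5p libraries lay below the NC-1 libraries by less than the NC-1 libraries lay below the parent libraries. As a share of each library's own FPKM sum, the levels were 0.405% and 0.421% in the parent libraries, 0.347% and 0.352% with NC-1, and 0.349% and 0.346% with miR-4711-5p, so that on this scale the treated groups overlapped.

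**Figure D2:**
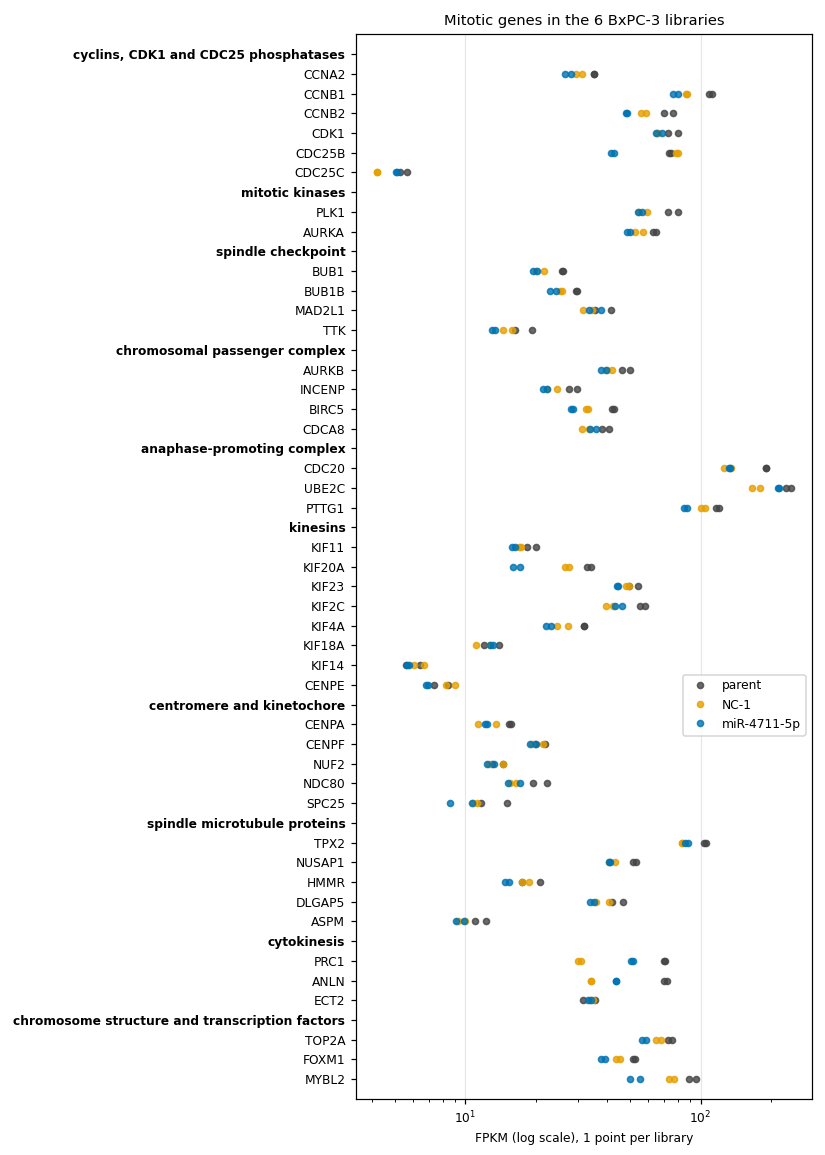
FPKM of the 43 mitotic genes on a log axis, grouped by role, with 1 point per library (2 parent, 2 NC-1, 2 miR-4711-5p). Levels run from about 5.47 FPKM for CDC25C to 237 FPKM for UBE2C as parent means, and in most rows the parent points lie to the right of the others.

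Each comparison was tested with limma on log2(FPKM + 1) over 12040 genes, and a gene was called at a Benjamini-Hochberg adjusted p under 0.05. Differences below are on that log2 scale with their standard error (± SE, 2 libraries a group), which understates the change of low genes. The adjusted p-values are from limma over all tested genes. An exact permutation test of 2 against 2 libraries cannot go below p = 0.333, so none was used. A replicate block, used as an alternative, adds the replicate number to the fit. The 3 comparisons share their groups: a low value in the NC-1 libraries both lowers NC-1 against parent and raises miR-4711-5p against NC-1.

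With miR-4711-5p against parent cells, 34 of the 43 genes fell and none rose, where 24.7% of all tested genes fell and 18.7% rose. The median difference of the 43 genes was -0.34, against -0.01 over all genes. With NC-1 against parent, 29 fell and none rose, where 15.1% of all genes fell and 12.1% rose, and the median was -0.25 against -0.01. With miR-4711-5p against NC-1, 11 fell and 4 rose, where 21.2% of all genes fell and 18.4% rose, and the median was -0.09 against 0.00. The share that fell against NC-1, 25.6%, was thus near that of all genes. Both miR-4711-5p libraries lay below all 4 control libraries in 22 of the 43 genes and above all 4 in none, where 26.3% of all genes lay below. Most of the changes were small. A change of at least 1.5-fold in FPKM + 1 was then required as well. CCNB2 narrowly missed it with miR-4711-5p against parent (log2 difference -0.577, ratio of mean FPKM 0.665). With this requirement, CDC25B, KIF20A, ANLN and MYBL2 fell with miR-4711-5p against parent. PRC1 and ANLN fell with NC-1 against parent, and with miR-4711-5p against NC-1 CDC25B and KIF20A fell and PRC1 rose. These are 9.30%, 4.65% and 6.98% of the 43 genes, where 9.24%, 2.48% and 8.11% of all genes passed in either direction, so the shares with miR-4711-5p were near those of all genes.

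These counts depend on the scale. When all libraries were scaled to the same FPKM sum, an alternative chosen after the data were seen, the median of all genes moved from -0.01 to 0.11 for miR-4711-5p against parent, and from -0.01 to 0.06 for NC-1 against parent. The medians of the 43 genes were then -0.21 and -0.17, and 23 and 17 genes fell. Over all genes, 1775 and 1000 then fell in these comparisons, against 2975 and 1823 on the deposited scale. The falls over all genes thus became fewer as well. On that scale 1 gene, CDC25B, rose with NC-1 against parent, where 2325 of all genes rose. With miR-4711-5p against NC-1, 9 fell and 5 rose, where 2083 of all genes fell and 2925 rose. Over all genes, the higher share of the calls went from 43.1% to 69.3% for miR-4711-5p against parent, from 44.4% to 69.9% for NC-1 against parent and from 46.5% to 58.4% for miR-4711-5p against NC-1. Without 1 library, the number that fell against NC-1 was 5 (without miR-4711-5p replicate 1) and 6 (without miR-4711-5p replicate 2), and the number that fell with NC-1 against parent was 18 and 16 (without parent replicate 1 or 2) and 14 (without NC-1 replicate 1). Of the 34 calls for miR-4711-5p against parent, 23 were made whichever library was left out and 11 were lost without at least 1. Of the 15 calls against NC-1, 7 were made throughout (CDC25B, UBE2C, PTTG1, KIF20A, PRC1, ANLN and MYBL2) and 8 were lost. Of the 29 calls for NC-1 against parent, 11 were made throughout (CCNB1, CCNB2, PLK1, BIRC5, CDC20, UBE2C, KIF2C, TPX2, NUSAP1, PRC1 and ANLN) and 18 were lost. Every lost call kept its sign, and each is named with its gene, with the log2 differences found without the libraries in question.

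**Figure D3:**
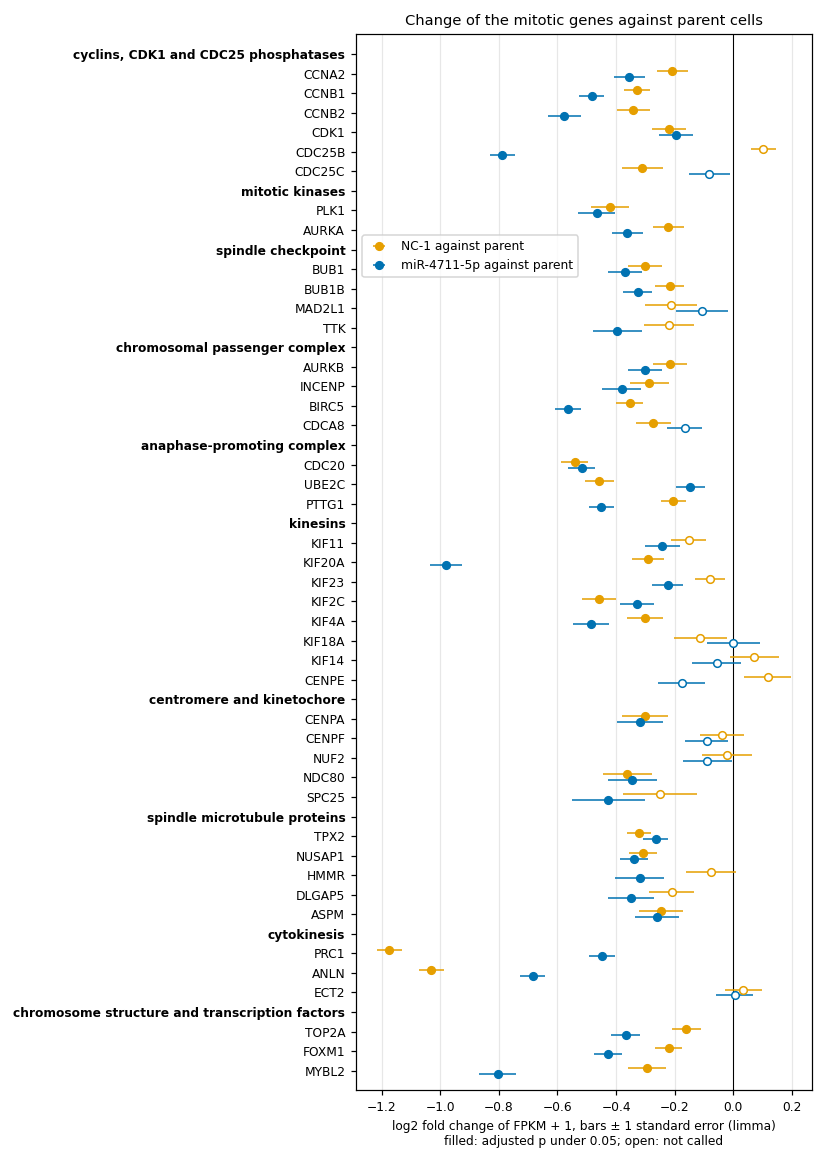
Difference in log2(FPKM + 1) of each mitotic gene against parent cells, for NC-1 and miR-4711-5p, with bars of 1 standard error (limma, 2 libraries a group). Filled points were called, 29 for NC-1 and 34 for miR-4711-5p, all below 0, and PRC1, ANLN and UBE2C lie lower with NC-1 than with miR-4711-5p.

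Among the cyclins, CDK1 and its phosphatases, CDC25B stood apart from CDC25C, although both remove inhibitory phosphates from CDK1. CDC25B was at 73.3 and 74.5 FPKM in the parent libraries, 79.8 and 78.96 FPKM with NC-1 and 43.01 and 41.7 FPKM with miR-4711-5p. The 4 control libraries lay close together and both miR-4711-5p libraries lay far below them. CDC25B fell with miR-4711-5p against NC-1 (-0.89 ± 0.042, adjusted p = 1.32e-05) and against parent (-0.79 ± 0.042, adjusted p = 1.79e-05), and its difference for NC-1 against parent was 0.10 ± 0.042, adjusted p = 0.116. The ratio of mean FPKM to NC-1 was 0.534. CDC25C, the lowest of the 43 genes in parent cells, was at 5.67 and 5.26 FPKM in the parent libraries, 4.20 and 4.22 FPKM with NC-1 and 5.14 and 5.07 FPKM with miR-4711-5p. It fell with NC-1 against parent (-0.31 ± 0.07, adjusted p = 0.0189) and rose with miR-4711-5p against NC-1 (0.23 ± 0.07, adjusted p = 0.0368). Its difference for miR-4711-5p against parent was -0.08 ± 0.07, adjusted p = 0.38, with a sign that turned to 0.036 on the equal-sum scale. The call of CDC25C against NC-1 was lost without a filter on low values, with a replicate block and without either NC-1 library or either miR-4711-5p library (0.22 to 0.24). That for NC-1 against parent was lost without a filter on low values and without parent replicate 1 or either NC-1 library (-0.31 to -0.26).

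CCNB1, cyclin B1, was at 111 and 108 FPKM in the parent libraries, 87.5 and 86.9 FPKM with NC-1 and 79.96 and 76.6 FPKM with miR-4711-5p. The groups did not overlap and lay in the order parent, NC-1, miR-4711-5p. It fell with NC-1 (-0.33 ± 0.044, adjusted p = 0.00323) and with miR-4711-5p (-0.48 ± 0.044, adjusted p = 0.000186) against parent. Its fall with miR-4711-5p against NC-1 was smaller (-0.16 ± 0.044, adjusted p = 0.0273), and that call was lost on the equal-sum scale and without either NC-1 library or either miR-4711-5p library (-0.19 to -0.12). CCNB2, cyclin B2, whose promoter above carries both words near the start, had the same order of groups, at 69.7 and 76.2 (parent), 55.99 and 58.7 (NC-1) and 48.3 and 48.7 FPKM (miR-4711-5p). It fell in all 3 comparisons, by 33.5% of mean FPKM with miR-4711-5p against parent and by 15.4% against NC-1 (adjusted p = 0.000246 and 0.0136), the latter call lost without NC-1 replicate 2 or either miR-4711-5p library (-0.24 to -0.20). CCNA2, cyclin A2, which acts in S phase and at entry into mitosis, and CDK1 itself fell against parent with both treatments, and their differences against NC-1 were -0.15 and 0.02 (adjusted p = 0.0634 and 0.767). For NC-1 against parent the call of CCNA2 was lost on the equal-sum scale and without either parent library or NC-1 replicate 1 (-0.21 to -0.17). CDK1 had its NC-1 call lost without a filter on low values, on the equal-sum scale, with only the 2 groups fitted and without parent replicate 2, either NC-1 library or either miR-4711-5p library (-0.23 to -0.15), and its call for miR-4711-5p against parent lost without a filter on low values, on the equal-sum scale and without parent replicate 2 or either miR-4711-5p library (-0.24 to -0.13).

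Both mitotic kinases fell against parent with each treatment. PLK1, which drives centrosome maturation and mitotic entry, was at 73.001 and 80.4 FPKM in the parent libraries, 54.6 and 59.4 FPKM with NC-1 and 56.1 and 54.2 FPKM with miR-4711-5p. The NC-1 and miR-4711-5p libraries overlapped, and both groups lay below the parent libraries. PLK1 fell with NC-1 (-0.42 ± 0.064, adjusted p = 0.00491) and with miR-4711-5p (-0.47 ± 0.064, adjusted p = 0.00119), and the difference between these groups was -0.05 ± 0.064, adjusted p = 0.605. AURKA, the kinase of the spindle poles, was at 64.5 and 62.9 FPKM in the parent libraries, 52.4 and 56.7 FPKM with NC-1 and 49.9 and 48.9 FPKM with miR-4711-5p. Its groups did not overlap. It fell against parent with NC-1 (-0.22 ± 0.052, adjusted p = 0.0211) and miR-4711-5p (-0.36 ± 0.052, adjusted p = 0.0015), the former lost on the equal-sum scale and without either parent library or NC-1 replicate 1 (-0.24 to -0.16). Its difference against NC-1 missed the threshold (-0.14 ± 0.052, adjusted p = 0.0684) and passed it without NC-1 replicate 1 (-0.20).

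In the spindle checkpoint, 3 of 4 genes fell with miR-4711-5p against parent. TTK, the kinase that starts checkpoint signalling (also called MPS1), was at 16.3 and 19.2 FPKM in the parent libraries, 14.4 and 15.8 FPKM with NC-1 and 13.4 and 13.01 FPKM with miR-4711-5p. The miR-4711-5p libraries were below all others. TTK fell against parent (-0.40 ± 0.084, adjusted p = 0.00824), and its differences were -0.22 ± 0.084, adjusted p = 0.0938, for NC-1 against parent and -0.18 ± 0.084, adjusted p = 0.135, against NC-1. Its call against parent was lost without miR-4711-5p replicate 2 (-0.38), and NC-1 against parent passed the threshold without parent replicate 1 (-0.33). MAD2L1, the checkpoint protein MAD2 that binds CDC20, was at 35.7 and 41.6 FPKM in the parent libraries, 34.6 and 31.7 FPKM with NC-1 and 37.9 and 33.7 FPKM with miR-4711-5p. The miR-4711-5p libraries overlapped both other groups. MAD2L1 was not called in any comparison, with differences of -0.11 ± 0.089, adjusted p = 0.367, for miR-4711-5p and -0.21 ± 0.089, adjusted p = 0.119, for NC-1 against parent. The checkpoint proteins BUB1 and BUB1B, which act at unattached kinetochores, fell with NC-1 and with miR-4711-5p against parent, to 0.765 and 0.791 of the parent mean with miR-4711-5p. With NC-1, the call of BUB1 was lost without parent replicate 1 (-0.29), and that of BUB1B was lost on the equal-sum scale and without either parent library or either NC-1 library (-0.24 to -0.20).

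In the chromosomal passenger complex, which corrects wrong attachments of chromosomes, all 4 genes fell with NC-1 and 3 of 4 fell with miR-4711-5p against parent. BIRC5 (survivin) was at 42.9 and 41.96 FPKM in the parent libraries, 32.7 and 33.3 FPKM with NC-1 and 28.1 and 28.7 FPKM with miR-4711-5p. Its groups lay in separate ranges in the order parent, NC-1, miR-4711-5p. It fell against parent with miR-4711-5p (-0.56 ± 0.045, adjusted p = 0.000103) and NC-1 (-0.35 ± 0.045, adjusted p = 0.00281) and against NC-1 (-0.21 ± 0.045, adjusted p = 0.00938), the last lost without miR-4711-5p replicate 1 (-0.20). CDCA8 (borealin), a binding partner of survivin, was at 37.998 and 40.6 FPKM in the parent libraries, 31.3 and 33.4 FPKM with NC-1 and 33.8 and 36.1 FPKM with miR-4711-5p, so that the miR-4711-5p libraries lay between the others. It fell with NC-1 against parent (-0.27 ± 0.06, adjusted p = 0.0172), a call lost on the equal-sum scale and without parent replicate 2 or NC-1 replicate 1 (-0.23 for both). Its differences with miR-4711-5p were -0.17 ± 0.06, adjusted p = 0.0609, against parent and 0.11 ± 0.06, adjusted p = 0.195, against NC-1, and the former passed the threshold with a replicate block (adjusted p = 0.0322). The complex's kinase AURKB and its scaffold INCENP fell against parent with both treatments, and neither was called against NC-1. For NC-1 against parent, the call of AURKB was lost without a filter on low values, on the equal-sum scale, with only the 2 groups fitted and without parent replicate 2, either NC-1 library or either miR-4711-5p library (-0.25 to -0.16). INCENP had this call lost without a filter on low values, on the equal-sum scale and without parent replicate 1 or NC-1 replicate 1 (-0.23 and -0.22). The call of AURKB for miR-4711-5p against parent was lost on the equal-sum scale.

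The 3 genes that act with the anaphase-promoting complex, which had the 3 highest levels in parent cells, all fell with NC-1 against parent. With miR-4711-5p against NC-1, UBE2C rose, PTTG1 fell and CDC20 was not called. CDC20, the co-activator that starts anaphase and the target of the spindle checkpoint, was at 189.6 and 190.0 FPKM in the parent libraries, 125 and 135 FPKM with NC-1 and 132 and 133 FPKM with miR-4711-5p. Both treated groups lay far below the parent libraries, with the miR-4711-5p libraries inside the range of the NC-1 libraries. It fell to 0.686 of the parent mean with NC-1 (-0.54 ± 0.047, adjusted p = 0.000907) and to 0.697 with miR-4711-5p (-0.52 ± 0.047, adjusted p = 0.000185), and the difference between them was 0.02 ± 0.047, adjusted p = 0.711. UBE2C, the ubiquitin-conjugating enzyme of the complex, was at 242 and 232 FPKM in the parent libraries, 166 and 179 FPKM with NC-1 and 213 and 215 FPKM with miR-4711-5p. Here the miR-4711-5p libraries lay between parent and NC-1. UBE2C fell with NC-1 (-0.46 ± 0.049, adjusted p = 0.00173) and rose with miR-4711-5p against NC-1 (0.31 ± 0.049, adjusted p = 0.00259). Its fall against parent with miR-4711-5p (-0.15 ± 0.049, adjusted p = 0.0465) was lost without a filter on low values, on the equal-sum scale, with a replicate block and without either parent library or either miR-4711-5p library (-0.18 to -0.11). PTTG1 (securin), which holds separase inactive until the complex marks it for destruction, was at 117 and 119.8 FPKM in the parent libraries, 104 and 101 FPKM with NC-1 and 87.2 and 85.3 FPKM with miR-4711-5p. Its groups lay in the order parent, NC-1, miR-4711-5p without overlap, and it fell with miR-4711-5p against NC-1 (-0.25 ± 0.043, adjusted p = 0.00392) and against parent (-0.45 ± 0.043, adjusted p = 0.000233). Its call for NC-1 against parent (-0.21 ± 0.043, adjusted p = 0.0143) was lost on the equal-sum scale and without parent replicate 2 or NC-1 replicate 2 (-0.19 and -0.18). Its related copies PTTG2 and PTTG3P were at 0 FPKM in every library, and reads they may share with PTTG1 were not measured.

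Of the 8 kinesins, 5 fell with miR-4711-5p against parent, and KIF20A fell most of all 43 genes. KIF20A, the motor MKLP2 that carries the passenger complex to the central spindle, was at 32.8 and 34.2 FPKM in the parent libraries, 26.6 and 27.7 FPKM with NC-1 and 15.9 and 17.005 FPKM with miR-4711-5p. The groups lay in 3 separate ranges, and the miR-4711-5p mean was 0.492 of the parent mean. KIF20A fell with miR-4711-5p against parent (-0.98 ± 0.055, adjusted p = 2.11e-05) and against NC-1 (-0.69 ± 0.055, adjusted p = 0.000123), and with NC-1 against parent (-0.29 ± 0.055, adjusted p = 0.00998), the last lost without NC-1 replicate 1 (-0.27). Its promoter, printed above, is 1 of 10 among the 37 without a CHR word. KIF2C, a microtubule depolymerase of the centromere, had the highest difference of the kinesins against NC-1, at 57.8 and 55.5 FPKM in the parent libraries, 39.6 and 42.4 FPKM with NC-1 and 43.3 and 46.5 FPKM with miR-4711-5p. The parent libraries were above all others. It fell with NC-1 (-0.46 ± 0.058, adjusted p = 0.00281) and miR-4711-5p (-0.33 ± 0.058, adjusted p = 0.00362) against parent, and its difference against NC-1 (0.13 ± 0.058, adjusted p = 0.117) was called only on the equal-sum scale among the alternatives run.

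KIF4A, a chromosome-bound motor, fell in all 3 comparisons, to 0.706 of the parent mean with miR-4711-5p, and its related copy KIF4B was at most at 0.0166 FPKM. Against NC-1 (-0.18 ± 0.061, adjusted p = 0.0491) the call was lost without a filter on low values, on the equal-sum scale, with a replicate block, with only the 2 groups fitted and without either parent library, NC-1 replicate 1 or either miR-4711-5p library (-0.21 to -0.11). For NC-1 against parent it was lost without either parent library or NC-1 replicate 2 (-0.30 to -0.23). KIF11, which separates the spindle poles, and KIF23, a motor of the central spindle, fell only moderately with miR-4711-5p against parent (-0.24 and -0.22, adjusted p = 0.014 and 0.0124). The call of KIF11 was lost on the equal-sum scale and without parent replicate 2 or either miR-4711-5p library (-0.26 to -0.18). KIF23 had its call lost on the equal-sum scale and without parent replicate 2 or either miR-4711-5p library (-0.23 to -0.17). CENPE, a kinetochore motor, was at 7.33 and 8.43 FPKM in the parent libraries, 9.00 and 8.24 FPKM with NC-1 and 6.78 and 6.91 FPKM with miR-4711-5p, with both miR-4711-5p libraries below all others. It fell against NC-1 (-0.29 ± 0.08, adjusted p = 0.0244), a call lost without a filter on low values and without NC-1 replicate 1 or either miR-4711-5p library (-0.30 to -0.24). Its difference against parent was -0.18 ± 0.08, adjusted p = 0.116. KIF18A, which dampens chromosome movement at the metaphase plate, was at 12.001 and 13.95 (parent), 11.1 and 12.8 (NC-1) and 12.7 and 13.2 FPKM (miR-4711-5p), and KIF14, a motor of cytokinesis, at 5.61 and 6.40 (parent), 6.69 and 6.03 (NC-1) and 5.77 and 5.67 FPKM (miR-4711-5p). The groups overlapped, except that both miR-4711-5p libraries lay below the NC-1 libraries for KIF14. Neither gene was called in any comparison, with adjusted p between 0.253 and 0.999.

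**Figure D4:**
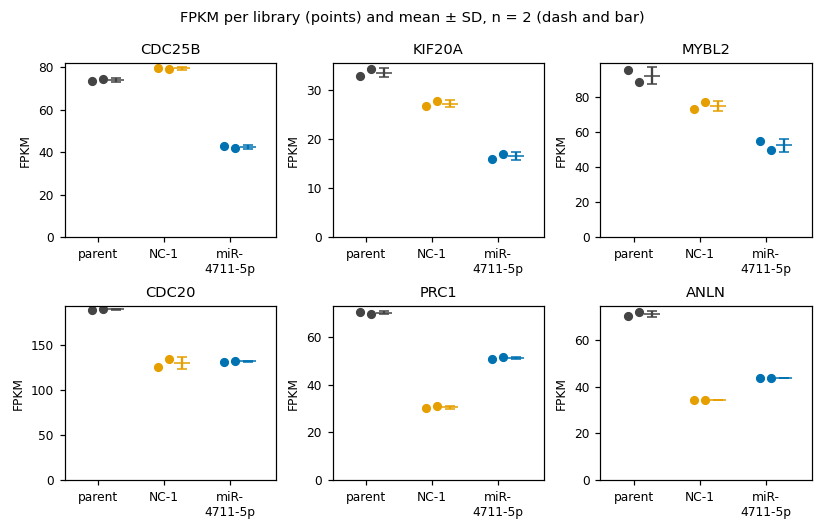
FPKM of CDC25B, KIF20A, MYBL2, CDC20, PRC1 and ANLN in each library (points) with the mean ± SD of 2 libraries beside them, on axes from 0. miR-4711-5p is lowest for CDC25B, KIF20A and MYBL2, level with NC-1 for CDC20, and between NC-1 and parent for PRC1 and ANLN.

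Among the 5 centromere and kinetochore genes, 3 fell with miR-4711-5p against parent and none was called against NC-1. NDC80, the microtubule-binding subunit of the NDC80 complex, was at 19.3 and 22.3 FPKM in the parent libraries, 15.5 and 16.3 FPKM with NC-1 and 15.2 and 17.1 FPKM with miR-4711-5p. The parent libraries lay above both overlapping treated groups. NDC80 fell with NC-1 (-0.36 ± 0.084, adjusted p = 0.0203) and miR-4711-5p (-0.34 ± 0.084, adjusted p = 0.0143), and the treated groups differed by 0.02 ± 0.084, adjusted p = 0.888. The call with miR-4711-5p was lost on the equal-sum scale and without parent replicate 2 or miR-4711-5p replicate 1 (-0.25 and -0.26), and that with NC-1 lost without a filter on low values and without parent replicate 2 or either NC-1 library (-0.40 to -0.27). SPC25, of the same complex, was at 11.7 and 14.98 FPKM in the parent libraries, 10.8 and 11.2 FPKM with NC-1 and 8.64 and 10.6 FPKM with miR-4711-5p, with a wide spread in the parent libraries. It fell with miR-4711-5p against parent (-0.43 ± 0.13, adjusted p = 0.0298), a call lost without a filter on low values, on the equal-sum scale, with only the 2 groups fitted and without parent replicate 2, NC-1 replicate 1 or miR-4711-5p replicate 1 (-0.43 to -0.26). NUF2, the partner of NDC80 in the complex, was at 12.97 and 14.5 (parent), 14.5 and 12.6 (NC-1) and 13.3 and 12.4 FPKM (miR-4711-5p), and the groups overlapped. CENPF, a large protein of the outer kinetochore, was at 19.8 and 21.8 (parent), 21.3 and 19.1 (NC-1) and 18.9 and 20.1 FPKM (miR-4711-5p), also with overlap. Neither was called in any comparison, and against parent their differences with miR-4711-5p, -0.09 ± 0.084 and -0.09 ± 0.074, turned positive on the equal-sum scale. The difference between the 3 subunits of the NDC80 complex was not tested. CENPA, the histone that marks the centromere, fell against parent with miR-4711-5p (-0.32 ± 0.078, adjusted p = 0.0153) and NC-1 (-0.30 ± 0.078, adjusted p = 0.0299). The first call was lost on the equal-sum scale and without either parent library or either miR-4711-5p library (-0.33 to -0.31), and the second lost without a filter on low values, on the equal-sum scale, with only the 2 groups fitted and without either parent library, NC-1 replicate 1 or either miR-4711-5p library (-0.31 to -0.19).

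All 5 spindle proteins fell with miR-4711-5p against parent. TPX2, which activates AURKA on microtubules, was at 103 and 106 FPKM in the parent libraries, 82.96 and 83.7 FPKM with NC-1 and 85.4 and 87.96 FPKM with miR-4711-5p. Its NC-1 and miR-4711-5p libraries were close together below parent. TPX2 fell with NC-1 (-0.32 ± 0.042, adjusted p = 0.00299) and with miR-4711-5p (-0.27 ± 0.042, adjusted p = 0.00225), and its difference between them was 0.06 ± 0.042, adjusted p = 0.322. HMMR, which shapes the spindle poles with TPX2, was at 17.4 and 20.7 FPKM in the parent libraries, 18.6 and 17.3 FPKM with NC-1 and 14.7 and 15.4 FPKM with miR-4711-5p, with only the miR-4711-5p libraries apart. It fell with miR-4711-5p against parent (-0.32 ± 0.084, adjusted p = 0.0196), and its differences were -0.08 ± 0.084, adjusted p = 0.529, for NC-1 against parent and -0.24 ± 0.084, adjusted p = 0.0562, against NC-1. The call against parent was lost without a filter on low values, on the equal-sum scale and without parent replicate 2 or either miR-4711-5p library (-0.35 to -0.20). HMMR fell against NC-1 with a filter at 5 FPKM (adjusted p = 0.0403), with only the 2 groups fitted (adjusted p = 0.0263) and without either parent library (adjusted p = 0.0237 and 0.0241). NUSAP1, DLGAP5 and ASPM, which bundle or anchor spindle microtubules, were at 0.786, 0.779 and 0.821 of the parent mean with miR-4711-5p, and none of them was called against NC-1. With miR-4711-5p against parent, the call of DLGAP5 was lost on the equal-sum scale and without parent replicate 2 or miR-4711-5p replicate 1 (-0.27 and -0.32), and that of ASPM was lost without a filter on low values, on the equal-sum scale and without parent replicate 2 or either miR-4711-5p library (-0.31 to -0.19). ASPM also fell with NC-1 (-0.25 ± 0.075, adjusted p = 0.0488), a call lost without a filter on low values, on the equal-sum scale, with a replicate block, with only the 2 groups fitted and without any 1 of the 6 libraries (-0.32 to -0.17).

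The cytokinesis genes PRC1 and ANLN had the largest differences between NC-1 and parent of the 43 genes. PRC1, which crosslinks the antiparallel microtubules of the central spindle, was at 70.6 and 69.6 FPKM in the parent libraries, 30.1 and 30.97 FPKM with NC-1 and 50.8 and 51.4 FPKM with miR-4711-5p. Each group was tight and the 3 ranges lay far apart, with NC-1 lowest. PRC1 fell to 0.435 of the parent mean with NC-1 (-1.17 ± 0.043, adjusted p = 5.24e-05) and to 0.729 with miR-4711-5p (-0.45 ± 0.043, adjusted p = 0.000246), and so rose with miR-4711-5p against NC-1 (0.73 ± 0.043, adjusted p = 3.15e-05). ANLN (anillin), the scaffold of the contractile ring, was at 70.004 and 72.02 FPKM in the parent libraries, 34.3 and 34.2 FPKM with NC-1 and 43.7 and 43.8 FPKM with miR-4711-5p. The order of the groups was that of PRC1, and again no ranges met. ANLN fell with NC-1 (-1.03 ± 0.043, adjusted p = 7.23e-05) and with miR-4711-5p (-0.68 ± 0.043, adjusted p = 3.26e-05) against parent, and rose with miR-4711-5p against NC-1 (0.35 ± 0.043, adjusted p = 0.000851). ECT2, the exchange factor that activates RhoA at the cell equator, was at 31.8 and 35.6 FPKM in the parent libraries, 34.996 and 33.9 FPKM with NC-1 and 34.3 and 33.1 FPKM with miR-4711-5p. Its groups overlapped, and its difference against parent was 0.0043 ± 0.063, adjusted p = 0.966, for miR-4711-5p and 0.03 ± 0.063, adjusted p = 0.723, for NC-1.

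TOP2A and both transcription factors fell in all 3 comparisons. MYBL2 (B-Myb), which joins the MuvB complex at CHR elements, was at 95.9 and 89.1 FPKM in the parent libraries, 73.1 and 77.3 FPKM with NC-1 and 55.03 and 50.05 FPKM with miR-4711-5p. The 3 groups lay apart, with miR-4711-5p lowest. MYBL2 fell to 0.568 of the parent mean with miR-4711-5p (-0.80 ± 0.064, adjusted p = 0.0001) and also fell against NC-1 (-0.51 ± 0.064, adjusted p = 0.000884). Its call for NC-1 against parent was lost without parent replicate 1 or NC-1 replicate 1 (-0.24 and -0.25). FOXM1, which follows B-Myb at the same promoters, was at 51.8 and 52.7 FPKM in the parent libraries, 43.8 and 45.6 FPKM with NC-1 and 39.4 and 37.8 FPKM with miR-4711-5p. Its groups were also apart, and FOXM1 fell with miR-4711-5p against parent (-0.43 ± 0.047, adjusted p = 0.000466) and against NC-1 (-0.21 ± 0.047, adjusted p = 0.0122), the latter lost without NC-1 replicate 2 or miR-4711-5p replicate 2 (-0.18 for both). With NC-1 against parent its call was lost on the equal-sum scale and without either parent library or NC-1 replicate 1 (-0.23 to -0.19). TOP2A, which untangles sister chromatids, was at 0.772 of the parent mean with miR-4711-5p and 0.893 with NC-1. Its call against NC-1 (-0.21 ± 0.049, adjusted p = 0.0135) was lost without NC-1 replicate 1 or miR-4711-5p replicate 1 (-0.17 and -0.18). With NC-1 against parent (-0.16 ± 0.049, adjusted p = 0.0481) it was lost without a filter on low values, on the equal-sum scale, with a replicate block, with only the 2 groups fitted and without any 1 of the 6 libraries (-0.19 to -0.13).

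By name, 10 of the 43 genes have a related copy or pseudogene in the annotation, and reads shared with these were not measured. For 13 genes, PRC1, ANLN, KIF20A, KIF2C, PLK1 and FOXM1 among them, an annotated antisense gene overlaps an exon. The library kit keeps strand, but whether the counting used it is not given in the sources used here, so reads of the 2 strands could be mixed in these genes.

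The wider mitotic machinery was taken from lists of 97 genes not among the 43, of which 96 were tested. With miR-4711-5p against parent, 51 fell (53.1%) and 2 rose (median -0.22), where 24.7% of all genes fell and 18.7% rose. With NC-1 against parent, 37 fell (38.5%) and 2 rose (median -0.15), where 15.1% of all genes fell and 12.1% rose. With miR-4711-5p against NC-1, 25 fell (26.0%) and 9 rose (median -0.10), where 21.2% of all genes fell and 18.4% rose. The share that fell against NC-1 was thus near that of all genes. Counts of the lists below stand against the same shares of all genes. The 8 condensins, which compact chromosomes, had 7 falls against parent and 6 against NC-1 with miR-4711-5p, from SMC2 (-0.32 ± 0.061, adjusted p = 0.0054, against NC-1) to NCAPD2 (-0.13 ± 0.041, adjusted p = 0.0419, against NC-1). Of 6 other centralspindlin and midbody genes, 5 fell against parent and 4 against NC-1, from CIT (-0.33 against NC-1) to RACGAP1 (-0.25), the partner of KIF23. Of 16 tested subunits and regulators of the anaphase-promoting complex, 4 fell and 1 rose with miR-4711-5p against parent, and 1 fell and 4 rose against NC-1, among them the subunit ANAPC15 (-0.30) and the inhibitor FBXO5 (EMI1, 0.35). The share of these that fell against parent, 25%, was near that of all genes.

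Of 17 genes of the constitutive centromere network, 10 fell against parent with each treatment, and 4 fell and 1 rose with miR-4711-5p against NC-1. CENPW, which binds DNA in that network, was at 42.7 and 45.1 FPKM in the parent libraries, 36.97 and 35.1 FPKM with NC-1 and 18.1 and 18.1 FPKM with miR-4711-5p, so that the miR-4711-5p libraries lay far below the rest. It fell with miR-4711-5p against NC-1 (-0.95 ± 0.052, adjusted p = 2.23e-05), while CENPQ, of the same network, rose (0.40 ± 0.11, adjusted p = 0.0293). Of 18 outer kinetochore genes, 10 fell and 1 rose against parent, and 4 fell and 2 rose against NC-1, with CASC5 (KNL1, -0.39) and MAD2L1BP (0.34) as the extremes. In 14 cohesin genes and their regulators, 5 fell against parent and 3 against NC-1, from STAG1 (-0.55) to CDCA5 (sororin, -0.30). Of 7 other kinesins, 5 fell against parent, and KIF18B was the 1 that fell against NC-1 (-0.39). Of 10 regulators of CDK1, 5 fell against parent, and against NC-1 2 fell and 2 rose, from BORA, which helps to activate PLK1 (-0.24), to MASTL (Greatwall kinase, 0.46). Against NC-1, 23.5% of the constitutive centromere, 22.2% of the outer kinetochore and 21.4% of the cohesin genes fell. For the other kinesins and the regulators of CDK1 the shares were 14.3% and 20%. These were near or below the 21.2% of all genes. Against parent, 24.7% of all genes fell with miR-4711-5p and 15.1% with NC-1.

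Lists next to mitosis were measured for comparison. Of 18 genes of MuvB, NF-Y, E2F and the pocket proteins, 6 fell and 3 rose with miR-4711-5p against parent, and 3 fell and 6 rose against NC-1, from TFDP1, a partner of E2F (-0.99), to E2F3 (0.57). Of 31 origin licensing and replication fork genes, 22 fell and 1 rose with miR-4711-5p against parent (median -0.35), and 25 fell and none rose with NC-1 against parent (median -0.37). Against NC-1, 5 fell and 7 rose (median 0.02), from GINS2, of the replicative helicase (-1.14), to ORC4, of the origin recognition complex (0.33). Over all genes, 24.7% fell and 18.7% rose with miR-4711-5p against parent, and 21.2% fell and 18.4% rose against NC-1. With NC-1 against parent, 15.1% of all genes fell and 12.1% rose.

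**Figure D5:**
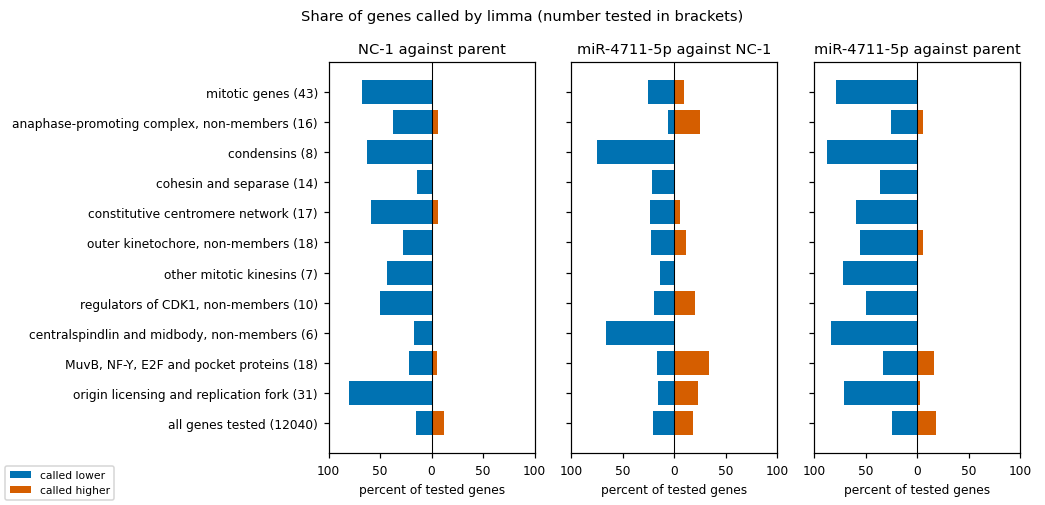
Percent of the tested genes of each list that limma called lower (left of 0) or higher (right of 0) in each of the 3 comparisons, with the number tested in brackets and all 12040 genes in the last row. In both comparisons against parent, the 43 mitotic genes reach to the left only, 29 with NC-1 and 34 with miR-4711-5p, and against NC-1 their bar is shorter, at 25.6%.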

How the data were processed

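RNA from 6 BxPC-3 libraries was analysed. According to the study, strand-specific mRNA libraries were sequenced single-end, mapped to hg19 with TopHat (with Bowtie2 and SAMtools) and summarised with Cuffnorm. The labels' processing notes name TopHat2 2.1.1, Bowtie2 2.3.5.1, SAMtools 1.2, Cuffdiff and Cufflinks 2.2.1, and the methods give other versions. The annotation and strand option are not given in the sources used here. The deposited values are FPKM per gene symbol, which the authors normalized for exon length and library size, so no count model was used. Depth was only roughly estimated, relative to parent 1.

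The 12040 of 26255 genes whose mean reached 1 FPKM were tested on log2(FPKM + 1) with limma 3.58.1 (R 4.3.3; eBayes with a trend), two-sided, all 3 groups in 1 fit with 3 residual degrees of freedom, at a Benjamini-Hochberg adjusted p under 0.05 over all tested genes. The step was tested on simulated data with 200 changed genes. Of log2 changes of 0.8, 82.8% were called against NC-1 and 83.1% against parent. Of log2 changes of 0.4, 40.0% and 40.5% were called. A gene not called may thus still have changed. The simulation held far fewer changed genes than were called here, so its shares need not hold for these data. Values were summarised with Python 3.11.15, numpy 2.4.6 and pandas 2.3.3 and drawn with matplotlib 3.10.9.

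Genes with values per library were, in each role, the lowest and highest against NC-1, members called higher or never called against either control, and the 5 highest in parent. CENPE, CCNB2 and genes given by ratio only were added after their values were seen. From each other list, the called genes with the lowest and highest difference against NC-1 were named. Members and lists were chosen with earlier results of these data known. Symbols were matched to GENCODE v44 lifted to GRCh37 for UTR and coding words (587 of 11180 through an older symbol, 860 of 12040 unmatched).

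Alternatives were a pseudocount of 0.1 FPKM, no filter or a mean of at least 5 FPKM, median-of-ratios and equal-sum scaling, a 1.5-fold requirement, a replicate block, the 2 compared groups alone, and leaving out each library.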

Additional observations from a re-analysis of the deposited data

How the results depend on the processing

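Of the 43 mitotic genes, 13 in miR-4711-5p against parent, 12 against NC-1 and 20 in NC-1 against parent changed side of the threshold under at least 1 alternative. These counts leave out the 1.5-fold requirement. No called difference of theirs changed sign. With a 1.5-fold requirement, all genes called were 1112 in miR-4711-5p against parent, 976 against NC-1 and 298 in NC-1 against parent. The mitotic genes called lower were then 4, 2 and 2, and 1 was higher against NC-1. No filter on low values gave 2165 genes for NC-1 against parent. Equal-sum scaling gave medians of -0.21, -0.038 and -0.17 for the mitotic genes, with 17 lower and 1 higher for NC-1 against parent. Over all genes, 1000 were lower and 2325 higher in that comparison.

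Leaving out 1 library at a time, the mitotic genes called lower were 24 to 34 (median -0.36 to -0.31, all genes 3246 to 5185) for miR-4711-5p against parent. They were 5 to 12, with 3 to 4 higher (median -0.11 to -0.09, all genes 2887 to 4679), against NC-1. They were 14 to 24 (median -0.29 to -0.21, all genes 1457 to 2385) for NC-1 against parent. Where a group had 1 library left, it was assumed to vary like the others. Calls over all genes were 3246 without miR-4711-5p replicate 1 for miR-4711-5p against parent. Against NC-1 they were 2887 and 3017 without miR-4711-5p replicate 1 or 2. For NC-1 against parent they were 1457 without parent replicate 1, 1680 without NC-1 replicate 1 and 2133 without NC-1 replicate 2.

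Signs turned only in differences that were not called. Under equal-sum scaling these were CDC25C 0.036, MAD2L1 0.030, KIF14 0.062, CENPF 0.042 and NUF2 0.042 for miR-4711-5p against parent, PLK1 0.0083, CENPA 0.035, NUSAP1 0.021, ASPM 0.036 and ECT2 0.024 against NC-1, and KIF23 0.0041, CENPF 0.042, NUF2 0.058 and HMMR 0.0041 for NC-1 against parent. Median-of-ratios scaling gave KIF18A -0.00041 for miR-4711-5p against parent. Without 1 library, the ranges of the differences that turned were MAD2L1 -0.21 to 0.00046, KIF18A -0.10 to 0.10, KIF14 -0.14 to 0.024 and ECT2 -0.075 to 0.083 for miR-4711-5p against parent. They were CDK1 -0.019 to 0.067, PLK1 -0.10 to 0.013, CDC20 -0.029 to 0.077, CENPA -0.13 to 0.10, CENPF -0.13 to 0.023, NUF2 -0.16 to 0.026, NDC80 -0.063 to 0.10, NUSAP1 -0.070 to 0.0061 and ASPM -0.069 to 0.041 against NC-1. They were KIF14 -0.0097 to 0.15, CENPF -0.11 to 0.036, NUF2 -0.11 to 0.071, HMMR -0.20 to 0.042 and ECT2 -0.046 to 0.11 for NC-1 against parent. The calls lost without a library stand beside each gene in the results. The cause of these changes was not tested.

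The groups share replicate numbers, but the labels do not tie equal numbers together, and the correlations of deviations between same-numbered libraries were 0.061, 0.0030 and -0.0089 over 12040 genes. With a replicate block, 34, 10 and 27 mitotic genes were called lower and 0, 3 and 0 higher (miR-4711-5p against parent, against NC-1, NC-1 against parent). The block ended the calls of UBE2C against parent (limma adjusted p = 0.0677), of CDC25C and KIF4A against NC-1 (0.0524 and 0.069) and of ASPM and TOP2A for NC-1 against parent (0.0725 and 0.0721), added that of CDCA8 for miR-4711-5p against parent (0.0322), and changed no other call of the 43 genes. FPKM keep no read numbers, so low genes such as CDC25C and KIF14 carry an unknown counting error.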
